A study of Mus musculus with 22 samples.

Results

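The cytosolic ribosomal protein genes were followed through the endothelial to haematopoietic transition of the mouse embryo. Members were all rows of the raw count table whose symbol has the form of a small subunit (Rps) or large subunit (Rpl, Rplp) ribosomal protein gene, and they were 85 of 24454 rows. Of these, 76 were core members, 30 of the small and 46 of the large subunit, and 9 were paralogues, retrogenes or like-named rows (Rpl3l, Rpl7l1, Rpl10l, Rpl22l1, Rpl32l, Rpl36al, Rpl39l, Rps4l and Rps27l). The symbols of some cytosolic ribosomal protein genes, such as Fau and Rps3a1, lie outside the rule and are given apart.

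All 22 RNA-seq libraries were made from the aorta-gonad-mesonephros (AGM) region of C57BL/6 embryos, and each held 25 sorted cells. Cells positive for VE-cadherin (Cdh5), an endothelial adhesion protein, were divided by surface CD44, a hyaluronan receptor, and Kit, a stem cell factor receptor. The CD44Neg group, labelled endothelial, had 10 libraries (4 of embryonic day E9.5, 3 of E10 and 3 of E11). The CD44LoKitNeg group, labelled haemogenic endothelial, had 6 (1 of E9.5, 2 of E10 and 3 of E11). The CD44LoKitPos group, labelled pre-HSPC (haematopoietic stem and progenitor cell), had 3 (1 of E9.5 and 2 of E10), and the CD44High group, labelled HSPC, had 3, all of E11. No genotype or treatment differed between the groups. The titles of the CD44LoKitPos and CD44High libraries carry the prefix KG, whose meaning the labels do not give. The labels do not say which libraries share a litter, so p-values measure only the spread between these libraries, which may be technical. The date in the labels changed with the stage, so stage and date cannot be told apart, and no stage held both CD44LoKitPos and CD44High.

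Each ribosome carries 1 copy of nearly every ribosomal protein, so the genes are transcribed at high and similar rates in growing cells. Their mRNAs start with a run of pyrimidines at the cap, the 5′ terminal oligopyrimidine (TOP) motif, through which the mTORC1 kinase and the RNA-binding protein LARP1 set their translation and stability. The transcription factor MYC is a well-known activator of ribosome production. Haematopoiesis is sensitive to ribosomal protein dosage, and loss of 1 allele of RPS19, RPL5 or RPL11 causes the red cell failure Diamond-Blackfan anaemia.

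The region around the start site is shown for 8 members, since the TOP run lies there and the members below differed most, or least, between the populations. The bases are RefSeq promoter sequence (build GRCm38.p6) from 60 before to 20 after the annotated start, on the strand of the gene, and the capitals mark the longest run of C and T within 20 bases of the start (the first of 2 equally long runs in Rpl39). Rps2 (chr17:24720003-24720082, plus strand), Rplp0 (chr5:115559407-115559486, plus) and Rpl12 (chr2:32961652-32961731, plus) were among the called members that fell most in CD44LoKitNeg. Rpl39 (chrX:37085203-37085282, minus), Rpl22l1 (chr3:28805448-28805527, plus) and Rpl5 (chr5:107900468-107900547, plus) were among the members that varied most against the rest of the family. Rpl27 (chr11:101442185-101442264, plus) and Rps9 (chr7:3703981-3704060, plus) varied least.
Rps2: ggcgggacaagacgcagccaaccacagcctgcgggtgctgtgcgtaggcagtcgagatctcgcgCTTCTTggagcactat
Rplp0: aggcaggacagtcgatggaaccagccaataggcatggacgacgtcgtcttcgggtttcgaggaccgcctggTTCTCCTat
Rpl12: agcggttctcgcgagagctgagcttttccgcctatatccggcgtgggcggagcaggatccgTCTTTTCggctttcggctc
Rpl39: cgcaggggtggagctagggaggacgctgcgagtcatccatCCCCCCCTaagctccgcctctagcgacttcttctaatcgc
Rpl22l1: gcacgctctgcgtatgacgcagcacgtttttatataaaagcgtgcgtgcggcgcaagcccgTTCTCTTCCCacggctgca
Rpl5: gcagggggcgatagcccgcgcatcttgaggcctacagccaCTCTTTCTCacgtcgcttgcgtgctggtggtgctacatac
Rpl27: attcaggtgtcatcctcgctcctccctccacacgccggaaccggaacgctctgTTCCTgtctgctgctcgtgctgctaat
Rps9: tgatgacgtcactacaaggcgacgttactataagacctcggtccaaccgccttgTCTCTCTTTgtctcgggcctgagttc
The longest runs of C and T were 6 bases in Rps2, 7 in Rplp0 and Rpl12, 8 in Rpl39, 10 in Rpl22l1, 9 in Rpl5 and Rps9, and 5 in Rpl27. A RefSeq promoter entry of 300 bases, 250 before and 50 after the start, was matched for 64 of the 85 members by symbol. A C/T run of at least 8 bases within 20 bases of the start, on the sense strand, stood in 31 of the 64 (48.4%) and in 4965 of all 27025 promoters (18.4%). The letters CCGGAAG, the core of ETS family sites, were found on either strand in 25 members (39.1%) and in 9.93% of all promoters. The E-box CACGTG, a letter string that MYC can bind, was found on either strand in 6 members (9.38%) and in 8.09% of all promoters, and the TATA letters TATAAA in 8 (12.5%) and 15.7%. Annotated starts are not exact to the base, and a match is a description, not a site in use.

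Total counts were 3912350 to 8657546 per library and were higher on average in CD44LoKitNeg (7080610) than in CD44Neg (5073170), CD44LoKitPos (6393710) or CD44High (4937740). The precursor rRNA gene Rn45s took 1.92% to 23.9% of the counts. Levels are given as normalized CPM, that is, counts per 1e+06 counts of a library size scaled by the trimmed mean of M values. The endothelial marker sum was 3842 to 6221 normalized CPM in CD44Neg, 3949 to 8626 in CD44LoKitNeg, 826 to 2007 in CD44LoKitPos and 71.5 to 153 in CD44High, where Cdh5 itself was at 0 in all 3 libraries although the sort was on its protein. The blood marker sum was 19.6 to 49.7, 108 to 389, 571 to 1461 and 1473 to 2753 in the same order. Macrophage markers summed to 3760 to 6086 in CD44High, against at most 230.0 in any other library, so the 3 CD44High libraries also carried macrophage transcripts that the HSPC label does not name. The CD44High libraries were uneven in mesenchyme markers, which summed to 898, 576 and 0.272 in replicates 20, 21 and 22, against at most 293 in any other library. In such bulk libraries, fewer cells of a type and less RNA per cell cannot be told apart.

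Of the 85 members, 79 had at least 10 counts in every library and 1, Rpl10l, had none in any. Together the members took 197635 to 406119 counts per library, and 76 rows had a mean above 100 normalized CPM. Per kilobase of exon (GENCODE M21), the core members had a median level of 323 normalized CPM, and levels far above it were those of Rplp1 (1370), Rplp0 (1197), Rpl4 (1086) and Rps2 (947). Other core rows were nearly empty. Rpl26 averaged 0.022 normalized CPM and was at 0 in 19 of 22 libraries, and Rps27 (4.29), Rpl30 (6.14) and Rpl34 (7.74) were also low. Many members have near-identical processed pseudogenes, and how reads with several matching places were counted is not given in the sources used here, so the level of any single member is uncertain by that route. Of the transcript words of 50 bases, a median of 42.8% in the core members also occurred in another annotated gene, and 71.3% in Rps2. In the 4 nearly empty core rows the share was 6.93% (Rpl34) to 63.1% (Rps27). The other 72 core members had a median of 42.8%, and 67 of them shared at least 6.93%, so sharing did not set the nearly empty rows apart. Why those rows were low was not tested. A chosen list of rows whose symbols mark them as pseudogenes or retrogenes of the family held 0.0906% to 0.163% as many counts as the members. The mean was 0.104% in CD44Neg and 0.136% in CD44LoKitNeg. Pseudogenes under other names were not counted.

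The summed share of the family among all counts was lowest in the CD44LoKitNeg libraries. It ran from 4.88% to 5.92% (median 5.38%) in the 10 CD44Neg libraries and from 3.47% to 4.13% (median 3.76%) in the 6 CD44LoKitNeg libraries. It was 5.68% in the E9.5 and 6.89% and 5.14% in the E10 libraries of CD44LoKitPos, and 5.93%, 5.72% and 6.62% in those of CD44High. No CD44LoKitNeg library reached the lowest library of any other population. Means were 5.38% ± 0.286 (SD, n = 10), 3.78% ± 0.273 (n = 6), 5.90% ± 0.899 (n = 3) and 6.09% ± 0.469 (n = 3). The low share was present at both stages, at 3.79% ± 0.287 (n = 3) at E9.5 and E10 and 3.77% ± 0.322 (n = 3) at E11, beside 5.34% ± 0.337 (n = 7) and 5.49% ± 0.0743 (n = 3) in CD44Neg. With the counts of Rn45s left out, the means were 6.23% in CD44Neg and 4.40% in CD44LoKitNeg. Small subunit genes made up 44.7% ± 0.307 of the family counts in CD44Neg (n = 10), 43.6% ± 0.945 in CD44LoKitNeg (n = 6), 43.6% ± 1.03 in CD44LoKitPos (n = 3) and 44.1% ± 1.91 in CD44High (n = 3). Within CD44LoKitNeg it was 42.8% ± 0.433 at E9.5 and E10 and 44.4% ± 0.258 at E11 (n = 3 each), and no test was run on these shares.

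**Figure D1:**
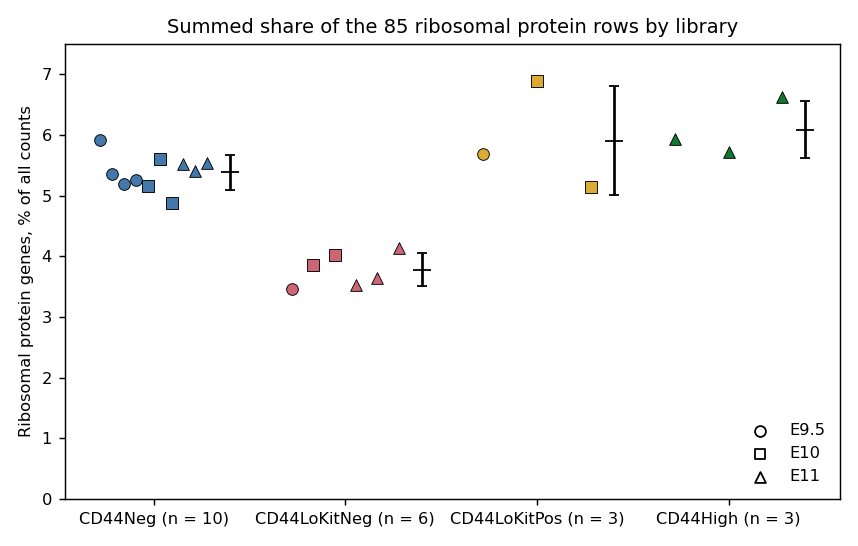
Summed counts of the 85 ribosomal protein rows as a percent of all counts (y axis) in each library, by population (x axis), with the stage as the marker shape; the horizontal tick and bar beside each group are the mean and SD. The 6 CD44LoKitNeg libraries sit between 3.47% and 4.13%, below every other library, whose lowest value is 4.88%.

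The first comparison asked how CD44LoKitNeg cells differ from the CD44Neg endothelium. Of 80 members tested, 38 were lower in CD44LoKitNeg, against 5.23% of all 11022 genes tested, and none was higher, against 4.94% of all genes (edgeR's quasi-likelihood test, adjusted p under 0.01 over all genes, here and below). At an unadjusted p under 0.05, 64 members and 3588 of all 11022 genes passed in either direction, and DESeq2's Wald test also called none higher. The fitted difference was negative for 77 members and positive for 3, with a median log2 fold change of -0.52 (quartiles -0.70 and -0.38) where the median of all genes was 0.01. The lower calls took in 14 of 30 small subunit genes (median -0.50) and 23 of 45 large subunit genes (median -0.55). The groups did not overlap for 24 members, all lower, where 3.08% of all genes lay wholly below. Total counts, the neural marker sum (121 to 708 normalized CPM against 92.2 to 154) and the mesenchyme marker sum (136 to 293 against 0.465 to 108) reached higher values in CD44LoKitNeg. There, 6 of 10 neural markers (Sox2, Pax6, Neurod1, Neurog2, Elavl3 and Sox10) and 2 of 10 mesenchyme markers (Col1a1 and Lum) were at 0 in every library. The erythroid marker sum was 21.5 to 61.3 against 2.61 to 23.7 in CD44Neg, with 7 of 12 markers at 0 in every CD44LoKitNeg library, and the macrophage marker sum was 28.9 to 72.4 in the E9.5 and E10 CD44LoKitNeg libraries against at most 16.95 in CD44Neg, with C1qa, C1qb, C1qc and Adgre1 at 0. The sums rest on few genes. Of 3 neural markers tested, 1 was called higher and 1 lower (median log2 -0.95), beside 4.94% and 5.23% of all genes. No call was made among the 2 macrophage (median -0.54), 3 mesenchyme (2.05) and 2 erythroid markers tested (1.94). The part of depth and of these transcripts in the difference was not tested.

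Rps2, a small subunit protein of the entry channel for mRNA, changed most among the members called without overlap. Its level in CD44Neg was 1698 at the lowest, 2099 at the median and 2341 normalized CPM at the highest. In CD44LoKitNeg it was 716, 878 and 1093. Every CD44LoKitNeg library thus lay below every CD44Neg library, and the log2 fold change was -1.19 (SE 0.13, adjusted p = 4.63e-06, edgeR).

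Rplp0, the base of the acidic stalk that recruits translation factors to the large subunit, had 1679, 2204 and 2547 normalized CPM in CD44Neg at the lowest, median and highest library. In CD44LoKitNeg it had 921, 1156 and 1230.4. The groups did not overlap and the log2 fold change was -0.92 (SE 0.12, adjusted p = 3.21e-05, edgeR). The other stalk proteins, Rplp1 (-0.57, adjusted p = 0.0098) and Rplp2 (-0.60, adjusted p = 0.00626), were lower in the same edgeR test, so all 3 stalk genes fell. Rpl12, whose protein sits at the foot of the stalk, ran from 369.7 over 479 to 590.2 normalized CPM in CD44Neg and from 202 over 229.9 to 296 in CD44LoKitNeg, and the log2 difference was -0.94 (SE 0.15, adjusted p = 0.000215, edgeR).

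Rpl4, a core protein of the peptide exit tunnel and one of the most abundant members, fell by 0.66 (SE 0.11, adjusted p = 0.000399). Rpl5 and Rpl11 form the 5S ribonucleoprotein, which also binds the MDM2 ligase. Rpl11 fell by 0.49 (SE 0.13, adjusted p = 0.00907, edgeR), while Rpl5 did not pass in the pooled comparison and changed with stage, as given below.

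**Figure D2:**
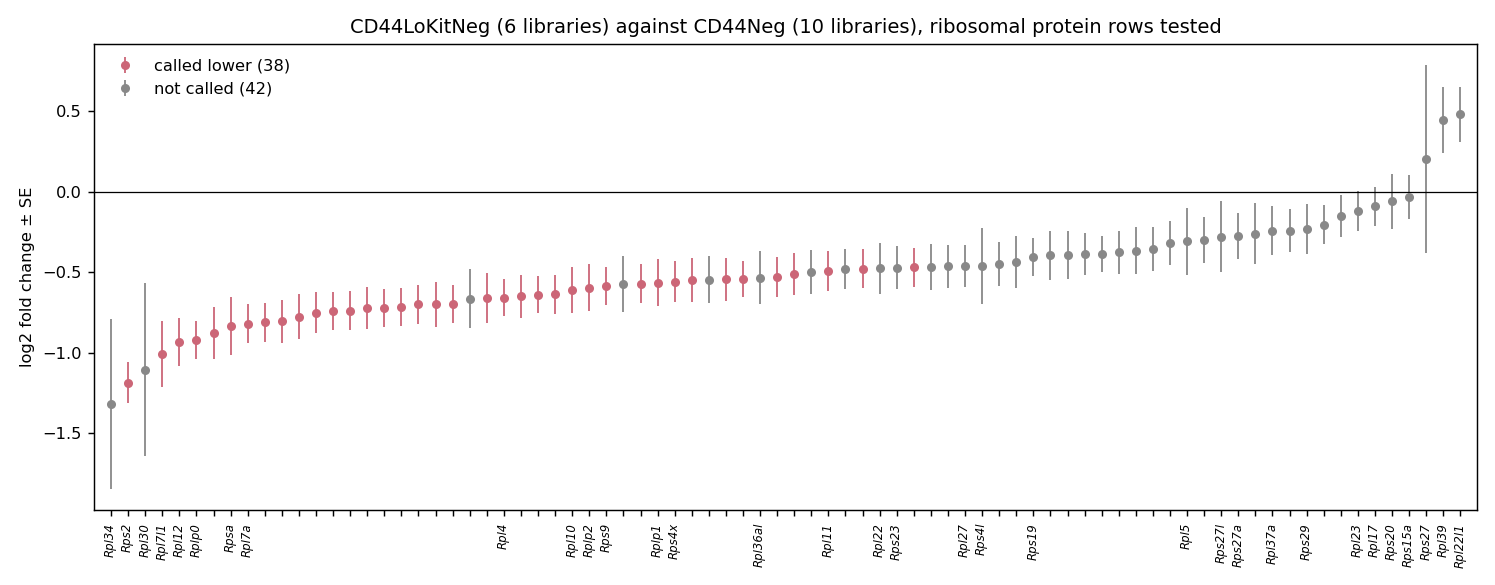
Fitted log2 fold change of each of the 80 tested members in CD44LoKitNeg against CD44Neg (y axis, bars are the SE), with members on the x axis in order of the value and those described in the text labelled. The 38 members called lower are in red, 77 values lie below 0, and the low-count rows Rpl34, Rpl30 and Rps27 have the widest bars.

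The lower level held at both stages. At E9.5 and E10, 14 members were lower (0.904% of all 12949 genes) and none higher (1.3%), with a median of -0.57 and 65 members and 3132 of all genes at an unadjusted p under 0.05. At E11, 9 members were lower (2.2% of all genes) and none higher (0.687%), with a median of -0.54 and 54 members and 2942 of all genes at an unadjusted p under 0.05. At E11, 69 members lay without overlap below CD44Neg (16.9% of all genes) and at the earlier stages 46 (5.91%). Rps2, Rplp0, Rpl12 and Rpl7a were called at each stage. Rps2 fell by 1.02 at E9.5 and E10 (adjusted p = 0.00107) and by 1.36 at E11 (adjusted p = 0.000115, edgeR). The test of the dependence on stage called no member higher (0.00772% of all genes) or lower (0.0772%). Its median was -0.01, 4 members and 1273 of all genes passed an unadjusted p under 0.05, and DESeq2's Wald test called no member.

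To compare the members with each other, each library was scaled to its summed member counts, which by construction sets the members' median difference near 0 (0.02 between CD44LoKitNeg and CD44Neg, where that of all genes became 0.53). On that scale 4 members were higher (16.1% of all genes) and 1 was lower (1.22% of all genes), and 19 members and 4317 of all 11022 genes passed an unadjusted p under 0.05. By the Wald test of DESeq2, 7 members were higher (20.1% of all genes) and 3 lower (1.98%). The lower member was Rps2, which fell from 3.84% of the family counts in CD44Neg to 2.45% in CD44LoKitNeg on average (log2 -0.65, SE 0.13, adjusted p = 0.000921, edgeR), although its groups overlapped on this scale. The higher members were Rpl22l1 (log2 0.998, adjusted p = 0.000336), Rpl39 (0.96, adjusted p = 0.00197), Rps15a (0.49, adjusted p = 0.00519) and Rpl17 (0.44, adjusted p = 0.00728). Rps15a took 1.19% of the family counts in CD44LoKitNeg against 0.849% in CD44Neg, and Rpl17 took 0.851% against 0.629%. These are shares within the family, and on the scale of the whole library none of these 4 was called higher. The calls were sensitive to single libraries, since Rps15a was lost in 7 and Rpl17 in 10 of the 16 fits that left out 1 library.

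The CD44LoKitPos group was compared with the CD44LoKitNeg and CD44Neg libraries of E9.5 and E10. Against CD44LoKitNeg, 79 of 81 members had a positive fitted difference and the median was 0.63, where the median of all genes was 0. The endothelial marker sum (3949 to 5140.0 normalized CPM in early CD44LoKitNeg and 826 to 2007 in CD44LoKitPos), the blood sum (144 to 389 and 571 to 1461) and the macrophage sum (28.9 to 72.4 and 168 to 230.0) moved with it, and their part was not tested. Only Rplp0 was called higher, where 0.263% of all genes were called higher, and no member was lower (0.232% of all genes). At an unadjusted p under 0.05, 61 members and 2609 of all 12949 genes passed. DESeq2's Wald test called 24 members and 1.5% of all genes higher. The 3 CD44LoKitPos libraries lay wholly above the 3 CD44LoKitNeg libraries for 64 members, where 14.3% of all genes did. Rplp0 had 2299.6 normalized CPM at E9.5 and 2580.4 and 1895 at E10 in CD44LoKitPos, against 1230.4, 1126 and 1168 in CD44LoKitNeg of the same stages. Its log2 fold change was 0.94 (SE 0.18, adjusted p = 0.00669, edgeR). The call was lost when any of CD44LoKitNeg replicates 14, 15 and 16 or CD44LoKitPos replicates 17 and 18 was left out, with an adjusted p of up to 0.0604, and 2 members were called without CD44LoKitPos replicate 19. Rps2 had 1803, 2158 and 1447 normalized CPM in CD44LoKitPos, and its difference of 0.82 did not pass (adjusted p = 0.0159, edgeR).

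Against CD44Neg, CD44LoKitPos had no member higher (1.75% of all genes) or lower (1.2%) by edgeR or by DESeq2's Wald test. The median difference was 0.09, 56 members were positive and 25 negative, the values ran from -0.37 to 1.01, and 4 members and 2648 of all 12949 genes passed an unadjusted p under 0.05. The median was -0.03 without CD44LoKitPos replicate 17. For Rplp0 the difference was 0.15 (SE 0.15). No member separated the groups without overlap, where 6.53% of all genes lay wholly above and 5.18% wholly below. Scaled to the family, CD44LoKitPos against CD44LoKitNeg had no member higher (0.139% of all genes) or lower (2.09%), with a median of 0.04 and 5 members and 3119 of all genes at an unadjusted p under 0.05. DESeq2's Wald test called none on that scale either.

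**Figure D3:**
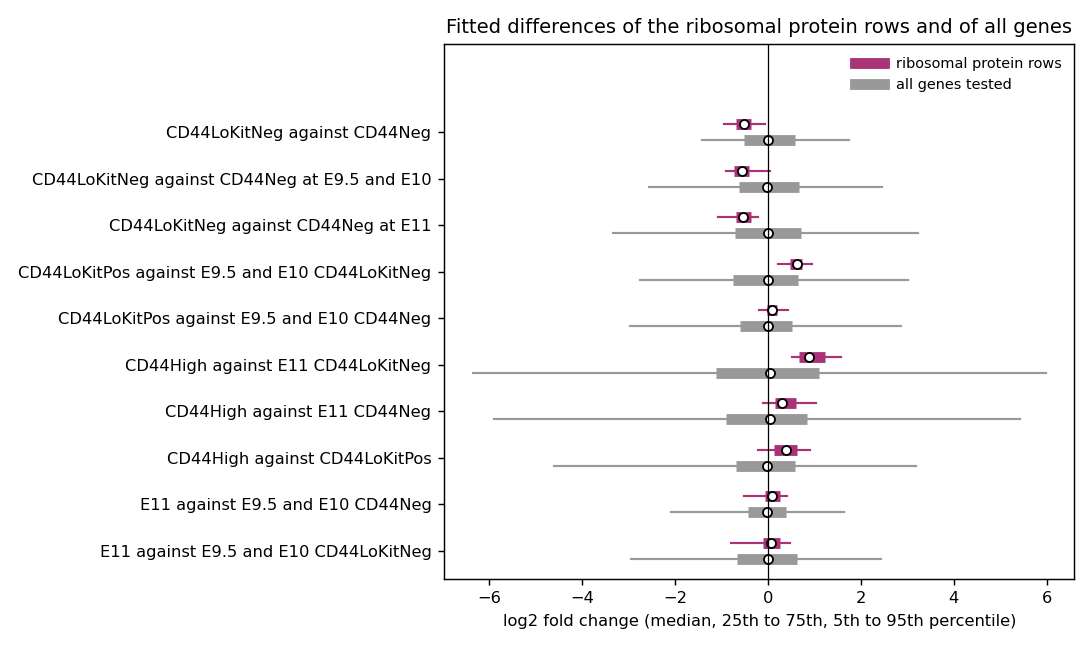
Log2 fold changes (x axis) of the ribosomal protein rows in purple and of all genes tested in grey for 10 comparisons (y axis); the circle is the median, the thick bar the 25th to 75th percentile and the thin bar the 5th to 95th. The members' median is -0.52 for CD44LoKitNeg against CD44Neg, 0.63 for CD44LoKitPos against CD44LoKitNeg and 0.88 for CD44High against CD44LoKitNeg, and the members spread less than all genes in each.

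CD44High was compared with the CD44LoKitNeg and CD44Neg libraries of the same stage, E11. Against CD44LoKitNeg, 61 of 81 members rose, where 10.2% of all genes did, and none fell, where 8.34% of all genes did. The median difference was 0.88 against 0.05 for all genes, and 74 members and 5187 of all 12949 genes passed an unadjusted p under 0.05. DESeq2's Wald test called no member lower either. The rise took in 25 of 30 small subunit genes (median 0.89), 32 of 45 large subunit genes (median 0.79) and 4 of 6 tested paralogue rows (median 1.22). The only member with a negative value was Rps27 (-1.64, SE 0.92), one of the nearly empty rows. The macrophage marker sum moved with this comparison, from at most 9.95 normalized CPM in E11 CD44LoKitNeg, with C1qa, C1qb, C1qc and Adgre1 at 0 in every CD44LoKitNeg library, to at least 3759.7 in CD44High. The erythroid marker sum moved with it too, at 32.2 to 61.3 in E11 CD44LoKitNeg and 96.9 to 368 in CD44High. The neural marker sum was 250.5 to 708 in E11 CD44LoKitNeg and 12.8 to 17.8 in CD44High. The mesenchyme marker sum was 136 to 155 in E11 CD44LoKitNeg and 0.272 to 898 in CD44High. Their part in the rise was not tested. The call count rested on each library to some degree, at 39 without CD44LoKitNeg replicate 11, 39 without CD44High replicate 20 and 35 without CD44High replicate 22.

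Rpl39, a very small protein of the exit tunnel, had 1902, 1228 and 585 normalized CPM in CD44High and 231, 333 and 331 in E11 CD44LoKitNeg. The CD44High libraries lay above the others but more than 3 times apart, and the log2 fold change was 2.05 (SE 0.34, adjusted p = 8.21e-05, edgeR). It was 1.47 without CD44High replicate 20. Rpl36al, a paralogue of Rpl36a, had 410.4, 294 and 328 normalized CPM in CD44High and 71.9, 112 and 91.4 in CD44LoKitNeg, and rose by 1.91 (SE 0.21, adjusted p = 5.67e-07, edgeR).

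Rpl5 had 2719, 1308 and 1326 normalized CPM in CD44High and 507, 509.8 and 597 in E11 CD44LoKitNeg, and rose by 1.73 (SE 0.23, adjusted p = 7.22e-06, edgeR). Rpsa, the laminin receptor protein of the small subunit, had 931, 1063 and 1379 against 321, 397 and 379.5 normalized CPM. It rose by 1.62 (SE 0.27, adjusted p = 0.00011, edgeR). The members described above as low in CD44LoKitNeg were compared here with 3 of those same libraries, so their values are only set side by side. Rps2 had 1973, 2116 and 2812 normalized CPM in CD44High (log2 1.58, adjusted p = 1.26e-06), Rplp0 had 2575, 2490.2 and 3539 (1.40, adjusted p = 4.22e-06) and Rpl12 had 492, 619.9 and 611 (1.49, adjusted p = 1.99e-06). All 3 stalk genes and Rpl11 (0.69, adjusted p = 0.00672, edgeR) were among the calls.

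Against E11 CD44Neg, 12 members were higher in CD44High, where 3.75% of all genes were, and none was lower, where 6.18% of all genes were. The median was 0.31 (0.19 without CD44High replicate 22) against 0.04 for all genes, 73 members were positive, 34 passed an unadjusted p under 0.05 (3957 of all 12949 genes), and 47 lay wholly above CD44Neg (18.5% of all genes). DESeq2's Wald test called 19 members and 5.74% of all genes higher and no member lower. The macrophage marker sum was at most 16.95 normalized CPM in CD44Neg and at least 3759.7 in CD44High. The erythroid sum was 8.48 to 23.7 and 96.9 to 368, and the neural sum was 102 to 154 and 12.8 to 17.8. The mesenchyme sum was 0.465 to 9.92 in E11 CD44Neg and 898, 576 and 0.272 in CD44High replicates 20, 21 and 22. The part of these markers was not tested. Among the 12 were Rpl39, Rpl36al, Rpl22l1, Rpl5 and Rps27l. Rpl39 was higher by 1.89 (SE 0.34, adjusted p = 0.000315), Rpl36al by 1.44 (SE 0.21, adjusted p = 2.61e-05), Rpl22l1 by 1.42 (SE 0.29, adjusted p = 0.00115), and Rpl5 and Rps27l each by 1.02 (SE 0.23, adjusted p = 0.00247 and 0.00301, edgeR). The count was 4, 3 and 4 without CD44Neg replicates 1, 2 and 3 and 2, 5 and 6 without CD44High replicates 20, 21 and 22. Rps27l lost its call in 5 of these 6 fits and Rpl22l1 in 2.

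Set beside CD44LoKitPos, CD44High had 6 members higher (0.958% of all genes) and none lower (2.46%), with a median of 0.38 and 40 members and 2466 of all 12949 genes at an unadjusted p under 0.05. DESeq2's Wald test called 23 members and 2.02% of all genes higher and no member lower, and edgeR without the filter on low counts called 3 members higher. Population and stage cannot be told apart in this comparison. The macrophage marker sum was 168 to 230.0 in CD44LoKitPos and 3759.7 to 6086 in CD44High. The erythroid marker sum (19.9 to 29.2 and 96.9 to 368) and the share of Rn45s (6.82% to 9.26% and 16.6% to 23.9%) also moved with it. The mesenchyme marker sum was 139 to 289 in CD44LoKitPos and 0.272 to 898 in CD44High. The part of these measures was not tested. The 3 CD44High libraries lay wholly above CD44LoKitPos for 38 members and wholly below for 2, beside 11.9% and 12% of all genes. Rps20, a small subunit protein that can inhibit MDM2, had 1244, 1140.2 and 1213 normalized CPM in CD44High and 496, 653 and 529 in CD44LoKitPos (log2 1.10, SE 0.22, adjusted p = 0.00236, edgeR). Its CD44High libraries were close together and above all 19 others, the highest of which had 743. The other calls were Rpl10 (1.02, adjusted p = 0.00083), Rps27a (0.91, adjusted p = 0.0039), Rps29 (0.82, adjusted p = 0.00329), Rpl23 (0.74, adjusted p = 0.00936) and Rps4x (0.73). The count fell to 1 without CD44LoKitPos replicate 18 or 19 or without CD44High replicate 20 or 22, was 2 without CD44High replicate 21 and was 7 without CD44LoKitPos replicate 17. Over these 6 fits Rps20 lost its call in 4, Rps27a and Rps29 each in 5, and Rpl10 in 1.

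Scaled to the family, CD44High had 2 members higher (3.04% of all genes) and 2 lower (18.2%) than E11 CD44LoKitNeg, with a median of -0.09 where that of all genes was -0.88, and 30 members and 5923 of all 12949 genes passed an unadjusted p under 0.05. By the Wald test of DESeq2, 12 members were higher (4.21% of all genes) and 12 lower (24.6%). Rpl36al rose from 0.249% to 0.478% of the family counts (log2 0.94, SE 0.20, adjusted p = 0.00109, edgeR) and Rps2 by 0.58 (adjusted p = 0.0087). Rpl37a fell from 1.60% to 1.05% (log2 -0.62, SE 0.15, adjusted p = 0.00302) and Rps19, the gene most often mutated in Diamond-Blackfan anaemia, from 2.45% to 1.65% (log2 -0.57, SE 0.16, adjusted p = 0.00738, edgeR). The fall of Rps19 is one of share, since it had 1000.2, 1185 and 1414 normalized CPM in CD44High and 876, 816 and 1012 in E11 CD44LoKitNeg. Only Rpl36al kept its call in all 6 fits without 1 library. Against CD44LoKitPos no member was higher (0.587% of all genes) or lower (3.92%) on this scale by edgeR, with 19 members and 3103 of all genes at an unadjusted p under 0.05. With DESeq2's Wald test, 4 members were higher (0.981% of all genes) and 3 lower (7.65%).

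**Figure D4:**
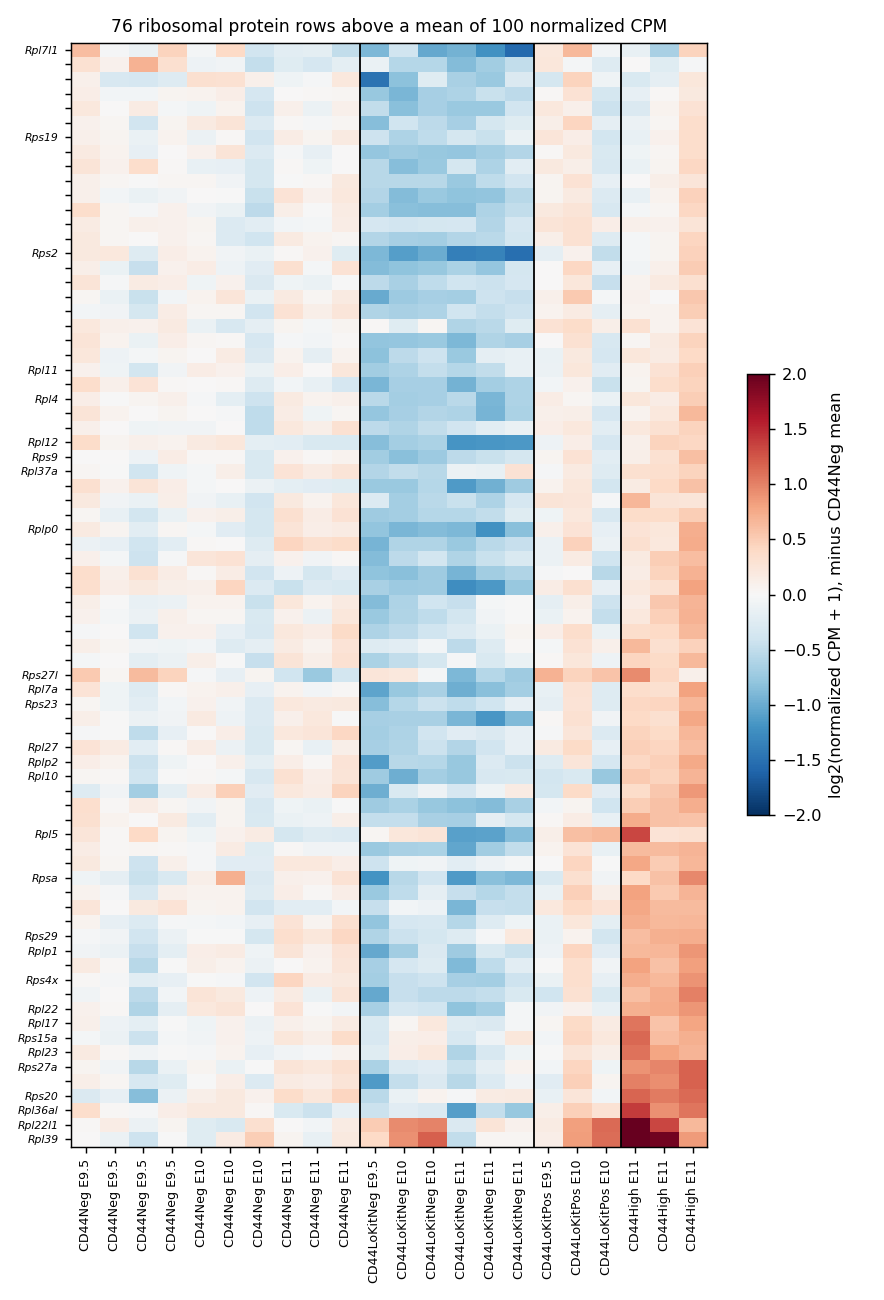
Level of the 76 members with a mean above 100 normalized CPM (rows) in each of the 22 libraries (rows described in the text are labelled; columns, by population and stage), coloured by log2(normalized CPM + 1) minus the CD44Neg mean, blue lower and red higher. The 6 CD44LoKitNeg columns are blue for most rows, with Rpl39 and Rpl22l1 at the foot as exceptions in the E9.5 and E10 libraries, and the CD44High columns are red for most rows, with a few blue ones at the top.

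The stages were compared within CD44Neg and within CD44LoKitNeg. In CD44Neg, E11 against E9.5 and E10 had no member higher (0% of all genes) or lower (0.00772%) by edgeR or DESeq2's Wald test, with a median of 0.09 and 21 members at an unadjusted p under 0.05, as 1169 of all 12949 genes were. Very few genes of any kind were called there, so the absence of calls is not particular to the members. The E11 libraries lay wholly above the earlier ones for 14 members (2.97% of all genes) and wholly below for 6 (2.02%). In CD44LoKitNeg none was higher (0.0849% of all genes) and 1, Rpl5, was lower (1.12%), with a median of 0.07 (0.03 without CD44LoKitNeg replicate 13 and 0.14 without replicate 11) and 15 members (2356 genes) at an unadjusted p under 0.05. Without overlap, 14 members were above (10.4% of all genes) and 9 below (11.9%). The share of Rn45s in CD44LoKitNeg was 7.29% to 11.1% early and 17.4% to 19.2% at E11. The endothelial marker sum was 3949 to 5140.0 normalized CPM early and 7341 to 8626 at E11. The macrophage sum (28.9 to 72.4 and 0 to 9.95) and the mesenchyme sum (189 to 293 and 136 to 155) moved with stage too. The part of these measures was not tested. Rpl5 had 1103 normalized CPM at E9.5, 1253 and 1294 at E10, and 507, 509.8 and 597 at E11 in CD44LoKitNeg (log2 -1.18, SE 0.23, adjusted p = 0.00454, edgeR). In CD44Neg it had 1016 to 1417 normalized CPM at E9.5 and E10 and 843, 903 and 891 at E11 (log2 -0.43, SE 0.19, adjusted p = 0.512). Both populations were thus lower at E11 without overlap, and the difference between the 2 changes was not called (-0.75, adjusted p = 0.36, edgeR). The call of Rpl5 was lost in all 6 fits that left out 1 library, with an adjusted p of up to 0.0261.

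The paralogues of the family did not all follow their parents. Rpl22l1, whose protein can replace that of Rpl22 in the ribosome, had 307, 385 and 475 normalized CPM in CD44Neg at the lowest, median and highest library. In CD44LoKitNeg it had 540.1, 731 and 755 at E9.5 and E10, and 312, 456 and 402 at E11. The early libraries of CD44LoKitNeg lay above all CD44Neg libraries, whereas Rpl22 did not pass in that comparison. The early difference of Rpl22l1 itself was 0.83 (SE 0.23) and was not called (adjusted p = 0.0291, edgeR). The ratio of Rpl22l1 to Rpl22 counts was 1.48 ± 0.339 in CD44Neg (SD, n = 10), 3.51 ± 0.263 in early CD44LoKitNeg (n = 3), 2.14 ± 0.6004 in E11 CD44LoKitNeg (n = 3), 2.54 ± 0.919 in CD44LoKitPos (n = 3) and 2.36 ± 1.24 in CD44High (n = 3). In CD44High, Rpl22l1 had 1591, 957 and 596 normalized CPM and Rpl22 had 432, 439.9 and 488, so the spread of the ratio came from Rpl22l1.

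Rps27l, a close copy of Rps27 and a known p53 target, had 460.2 to 804 normalized CPM in CD44Neg of E9.5 and E10 and 308 to 403 at E11. In CD44LoKitNeg it had 504 to 612 and then 277 to 346. Neither change with stage was called (log2 -0.74, adjusted p = 0.254, and -0.87, adjusted p = 0.0336, edgeR). In CD44LoKitPos it had 839, 707 and 770.4, and in CD44High 995, 692 and 556. Rps27l therefore stood far above the row of Rps27, which averaged 4.29 normalized CPM. Rps27 is one of the nearly empty core rows, whose levels are uncertain. The counts therefore do not show which gene of the pair was expressed more. Rpl7l1, a paralogue of Rpl7, was the only one of 5 tested paralogue rows called lower in CD44LoKitNeg, although 4 had a negative value (log2 -1.01, SE 0.20, adjusted p = 0.00162, edgeR), and it was higher in CD44High than in E11 CD44LoKitNeg (1.18, adjusted p = 0.00479). Rps4l had 40.3 to 147 normalized CPM and no call in any comparison. Rpl39l had 0 to 10.2, Rpl32l 0 to 1.39, and Rpl3l was above 0 in 2 libraries.

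**Figure D5:**
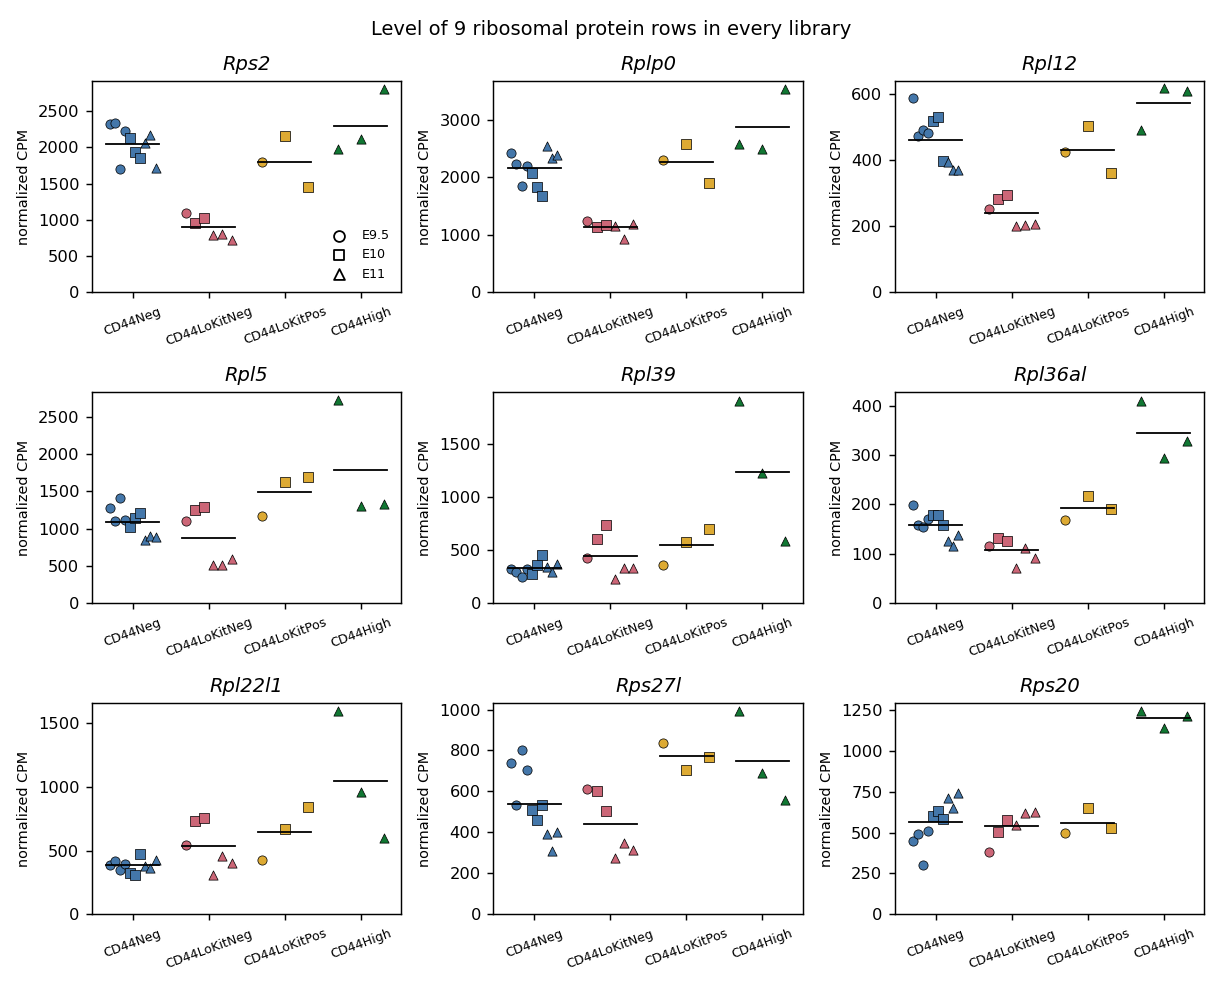
Normalized CPM (y axis) of 9 members in every library by population (x axis), with the stage as the marker shape and a line at the group mean. Rps2, Rplp0 and Rpl12 are lowest in all 6 CD44LoKitNeg libraries, Rpl5 is lower in the 3 E11 than in the 3 earlier CD44LoKitNeg libraries, and Rps20 is highest in the 3 CD44High libraries.

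How far members varied against each other was measured as the SD over the 22 libraries of the log2 share of the family counts, for the 79 members with at least 10 counts in every library. It was highest for Rpl34 (0.811), Rpl30 (0.727), Rpl39 (0.713), Rpl22l1 (0.616), Rps27l (0.477), Rpl5 (0.464) and Rpl7l1 (0.451), of which the first 2 are low-count rows. It was lowest for Rpl27 (0.108), Rps9 (0.120) and Rps23 (0.126). Rpl27 had 380.4 to 567 normalized CPM in CD44Neg, 296 to 419 in CD44LoKitNeg, 418 to 613 in CD44LoKitPos and 630.0 to 724 in CD44High. The 8 sequences above do not divide by this order, since Rps9 and Rpl5 both had a C/T run of 9 bases. Over the members with a promoter entry, those with a C/T run of at least 8 bases at the start had 11 of 30 called lower in CD44LoKitNeg (median -0.44) and those without had 16 of 29 (median -0.54), beside 5.23% of all genes. For CD44High against E11 CD44LoKitNeg the counts were 24 of 30 higher (median 0.96) and 23 of 30 (median 0.87), beside 10.2% of all genes.

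Of the ribosomal proteins outside the symbol rule, Fau and Rps3a1 were not called in CD44LoKitNeg against CD44Neg (log2 -0.29 and -0.20). Gnb2l1, which encodes the small subunit scaffold RACK1, was lower (-0.79, SE 0.11, adjusted p = 9.25e-05, edgeR). Gnb2l1 was also higher in CD44LoKitPos (0.92, adjusted p = 0.00669) and CD44High (1.09, adjusted p = 5.53e-05) than in CD44LoKitNeg of the same stages. Rps3a1 was higher in CD44High (1.14, adjusted p = 5.99e-05, edgeR).

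Of the 18 tested members whose human counterparts are mutated in Diamond-Blackfan anaemia, 3 were lower in CD44LoKitNeg than in CD44Neg (list median -0.40), beside 38 of 80 members and 5.23% of all genes, and 12 were higher in CD44High than in E11 CD44LoKitNeg (median 0.74), beside 61 of 81 members and 10.2% of all genes. Of 22 translation factor and other mRNAs with a TOP motif, 7 were lower and 1 higher in CD44LoKitNeg (median -0.31), beside 5.23% and 4.94% of all genes. The lower ones were the elongation factor genes Eef1d (-1.22), Eef1g (-1.08) and Eef2 (-0.60), the poly(A)-binding protein gene Pabpc1 (-0.86), the initiation factor genes Eif3l (-0.94) and Eif2s3x (-1.35), and Naca (-0.47), a chaperone of nascent chains. Tpt1 was higher (0.65). In CD44High against E11 CD44LoKitNeg, 13 were higher and 1 lower (median 0.99), beside 10.2% and 8.34% of all genes. The highest was Npm1, a nucleolar protein of ribosome assembly (2.33, adjusted p = 2.08e-06, edgeR), and the lower one was Vim, an intermediate filament gene (-2.49).

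Of 9 tested genes of the MYC family, 1, Myc, was lower in CD44LoKitNeg than in CD44Neg (5.23% of all genes were), and the list median was 0.54. Myc had 53.9, 107 and 121 normalized CPM in CD44Neg and 13.01, 25.2 and 39.1 in CD44LoKitNeg (lowest, median and highest), and the groups did not overlap (log2 -1.97, SE 0.24, adjusted p = 1.71e-05, edgeR). Against the CD44LoKitNeg libraries it was also higher in CD44LoKitPos of E9.5 and E10 (1.97, adjusted p = 0.00386) and in CD44High (2.76, adjusted p = 2.64e-06, edgeR), and all 3 comparisons share CD44LoKitNeg. Mycn, a related factor, was higher in CD44LoKitPos than in early CD44Neg (2.10, adjusted p = 0.00541) and lower in CD44High than in CD44LoKitPos (-5.45), and it fell by 4.47 with stage in CD44LoKitNeg (adjusted p = 0.000635, edgeR). The levels of Myc and of the members come from the same libraries, and a relation between them was not tested.

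Among 20 mTORC1 and LARP1 genes tested, 1 was lower in CD44LoKitNeg than in CD44Neg (5.23% of all genes were), Eif4ebp1 (-1.11), an inhibitor of cap-dependent translation, and the median was -0.10. In CD44High against E11 CD44LoKitNeg 2 of 21 were higher, a share close to the 10.2% of all genes, namely the cap-binding protein gene Eif4e (1.92, adjusted p = 6.88e-05, edgeR) and Sesn1 (2.67), which encodes an inhibitor of mTORC1. Of 13 chaperone and import genes for ribosomal proteins, 1 was lower in CD44LoKitNeg (5.23% of all genes were), the Rpl3 chaperone gene Grwd1 (-1.67, adjusted p = 0.000512), with a median of -0.59. In CD44High 5 were higher than in E11 CD44LoKitNeg (median 1.24, beside 10.2% of all genes called), namely Grwd1 (1.47), Heatr3 (1.24), Pdcd2 (2.36), Nufip1 (1.18) and Nap1l1 (1.72). Of 10 p53 response genes tested, Bax (-1.17) and Trp53 (-0.81) were lower in CD44LoKitNeg than in CD44Neg (5.23% of all genes were). Of 12 tested in the other fit, Ccng1 was higher (1.55) and Phlda3 lower (-3.76) in CD44High than in E11 CD44LoKitNeg, beside 10.2% and 8.34% of all genes.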

How the data were processed

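Libraries of 25 sorted cells were made by SMART-Seq2 and Nextera and sequenced on a NextSeq 500. The authors clipped reads with FASTX, mapped them with the RNA STAR aligner and summed reads by gene in htseq-count. The submitters' processing notes name FastQC, HTSeq and the build mm10. Versions, strand setting, annotation and the treatment of reads with several matching places are not given in the sources used here. The deposited values are raw counts per gene for 22 libraries, 3912350 to 8657546 per library, so the precision of low rows is limited by counting error. A count of 0 allows up to 3 counts.

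Differences were tested over all genes with edgeR 4.0.16 (R 4.3.3; limma 3.58.1) by the quasi-likelihood test after filterByExpr (minimum count 10, minimum total 15) and TMM scaling, with Benjamini-Hochberg adjustment and calls at an adjusted p under 0.01. CD44LoKitNeg was compared with CD44Neg over 16 libraries, and the other comparisons came from 1 fit of 22 libraries with a mean for each population at E9.5 with E10 and at E11. The SE of a log2 fold change was derived from the F statistic. For the family scale, the library size was the summed count of the members. The code was tested on simulated counts. Alternatives were DESeq2 1.42.0 (size factors, Wald test), no filter, TMM without the members, no Rn45s, embryonic day as a covariate, single stages and leaving out each library.

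Members named singly were the called members with the largest fold changes without overlap (up to 4 in each direction of each comparison), the paralogues and their parents, the stalk and 5S members, the 3 highest, lowest, most variable and least variable members, and called genes of 4 lists (proteins outside the symbol rule, TOP mRNAs, mTORC1 and LARP1, MYC). Other names, such as Rpl7a, Rpl23, the chaperone genes and the p53 response genes, were chosen after their values were seen. The members and the gene and marker lists were chosen with earlier results of these data known, so their counts are descriptions. A few genes that these rules name are not reported here. Replicate libraries differed by more than counting noise (chi-square per degree of freedom 17.0 to 85.2 over 20 pairs), so none was a duplicate. Promoter words and transcript words were counted in Python 3.11.15 with pandas 2.3.3. Plots were drawn with matplotlib 3.10.9.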

Additional observations from a re-analysis of the deposited data

Results flagged for a closer look

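Over 80 groups checked, 6 had a library whose gap to its nearest neighbour exceeded Dixon's 95% critical value, and chance alone marks about 1 group in 20. Rpsa had 1160 normalized CPM in CD44Neg replicate 9 against 519 to 861 in the other 9 CD44Neg libraries. Rplp0 had 921 in CD44LoKitNeg replicate 12 against 1126 to 1230.4 in the other 5. Rpl11 had 478 in CD44LoKitNeg replicate 13 against 329 to 382 in the other 5. The remaining 3 are rows with very few counts: Rpl26 had 0.155 in CD44Neg replicate 3 and 0 in the others of its group, Rpl3l had 0.135 in CD44LoKitNeg replicate 16 and 0 in the others of its group, and Rpl39l had 10.2 in CD44Neg replicate 6 against 0 to 2.38 in the others.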

How the results depend on the processing

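No paired analysis was possible because each library has a number of its own, so no replicate number is shared between groups. None of the called members followed singly through the alternatives changed direction. For the other called members and for the genes of the lists, the direction was not checked. The members' median for CD44LoKitPos against CD44Neg ran from -0.03 (without CD44LoKitPos replicate 17) to 0.18 when 1 library was left out, and that for the dependence on stage from -0.13 (without CD44LoKitNeg replicate 13) to 0.05 (without CD44LoKitNeg replicate 11), so the signs of these medians near 0 are not stable. The count of members lower in CD44LoKitNeg than in CD44Neg was 25 without the filter on low counts, 9 with E11 libraries only and 14 with E9.5 and E10 libraries only, and 26 to 38 when 1 library was left out (26 without CD44LoKitNeg replicate 14). With DESeq2's Wald test, CD44LoKitPos against CD44LoKitNeg had 24 members higher, CD44High against CD44Neg 19 and CD44High against CD44LoKitPos 23. In CD44LoKitNeg, the Wald test called 1 member higher at E11, and DESeq2's size factors left 0 lower. Without the filter the counts higher in CD44High were 6 against CD44Neg and 3 against CD44LoKitPos. On the family scale, CD44LoKitNeg against CD44Neg had 2 higher without the filter, 7 higher and 3 lower with the Wald test. CD44High against CD44LoKitNeg had 1 higher and 0 lower without the filter and 12 higher and 12 lower with the Wald test, and CD44High against CD44LoKitPos had 4 higher and 3 lower with the Wald test. The shares of all genes that the Wald test called stand beside these counts in the comparisons above. The cause of these differences was not tested. Leaving out 1 library gave 0 to 2 members higher in CD44LoKitPos than in CD44LoKitNeg, 35 to 52 higher in CD44High than in CD44LoKitNeg, 2 to 6 than in CD44Neg and 1 to 7 than in CD44LoKitPos. It gave 0 in CD44LoKitNeg at E11 against earlier stages, and on the family scale 2 to 4 higher and 1 to 2 lower in CD44LoKitNeg and 1 to 3 higher and 0 to 1 lower in CD44High. The mean summed share without Rn45s was 6.23% in CD44Neg, 4.40% in CD44LoKitNeg and 7.72% in CD44High. Of the single members, Rpl5 with stage under DESeq2's size factors (-1.08, adjusted p = 0.012) and Rps29 without the filter (adjusted p = 0.0115) lost the call. Leaving out mitochondrial genes was not run, since the table has no rows named as such. Few or no counts limit what can be said of Rpl26, Rpl3l, Rpl10l and Rpl32l, where 3 counts equal 0.35 to 0.82 CPM. Why the row of Rpl26, a core member, was nearly empty was not tested.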
